A study of Mus musculus with 15 samples.

Results

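Of 55487 genes in the table, 12996 are described here, chosen because the counts assigned to either allele averaged 20 or more over 3 SIRT7-knockout mouse cell lines. In each line the counts of genome 1 were set against the counts of genome 2, the 2 parental genomes of a hybrid mouse. By the GENCODE M21 annotation, 12548 of these genes were autosomal, 417 X-linked, 19 mitochondrial and 2 Y-linked, and 10 had no entry. Of all of them, 11212 were protein coding and 903 were pseudogenes. At the limit, 40 genes had a mean of exactly 20 counts and 36 genes just outside it had a mean of 19.7.

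All libraries were polyA RNA from female C57BL6/CAST hybrid TTF cells, which is how the labels name the cell type. The knockout columns are numbered 2, 9 and 22 and were taken as the lines labelled c2, c9 and c22 with the genotype SIRT7-KO, 1 library each. The numbers 9 and 22 fit no other sample, but the labels also hold an earlier SIRT7-KO TTF library called replicate 2, so for line 2 this match rests on the naming of the columns alone. The 3 wild-type TTF libraries (genotype S7WT_TTF) of the same sex and hybrid strain entered no test and are quoted only as background. Their titles are formed like those of the earlier knockout libraries, not like those of the lines. A difference by genotype thus cannot be told apart from one between these sets of libraries. The labels do not say which allele of Sirt7 was edited, how the lines were derived or which strain is genome 1, and the design text speaks of other cell types than TTF.

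An F1 hybrid carries 1 copy of each autosome from each parent, so a read that covers a strain-specific base can be assigned to its parental copy. Most genes are transcribed from both copies. Imprinted genes use only the maternal or the paternal copy, and in female cells 1 X chromosome is silenced by the long RNA Xist, which is made from the silenced X itself. A cell line that grew from 1 cell carries the same choice in all its cells, and changes in the number of copies of a chromosome also move the balance between alleles.

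The knockout libraries held 61068884 to 61476367 estimated counts each, and when the reads were split by genome an allele was given for 37.2 to 37.9%. A gene had a median of 581 allele-assigned counts per line. Of 12 fibroblast markers, 10 reached at least 1 CPM (counts scaled to the library total) in every line, and the summed level of the list was 26145 to 34723 CPM. Markers of other cell types summed to at most 27.4 CPM (macrophage list, led by Lyz2), and Adgre1, C1qa, Cdh5, Cldn5, Krt14, Krt1, Myod1, Myog, Pax7 and Pou5f1 were at 0 in all 3 lines. The targeted gene Sirt7, which encodes a nuclear deacylase, still gave 512, 694 and 787 counts in lines 2, 9 and 22, against 598 to 1107 in the wild-type libraries. Whether the edited part of the gene lies in these counts is not given, so they do not check the labels.

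Across all members, edgeR's quasi-likelihood test called 1733 genes toward genome 1 (13.3% of those tested) and 2199 toward genome 2 (16.9%), at a Benjamini-Hochberg adjusted p under 0.05. Of these, 1704 and 1821 were autosomal, and the X accounted for 26 and 358. The calls rested on all 3 lines: without line 2 there were 67 and 189, without line 9 there were 1265 and 1472, and without line 22 edgeR called 0 in either direction, with 4137 of 12996 genes at an unadjusted p under 0.05. Of 40 called genes near a single genome or on the imprinted lists that are named or grouped below, 22 were called without line 2, 34 without line 9 and 0 without line 22. With all 3 lines DESeq2 called 2098 and 2573, and limma 1833 and 2294. In a simulation of these 12996 genes, 200 were changed and all had the same dispersion of 0.144. There the test recovered 67% of 4-fold and 6% of 2-fold allelic differences. Far more genes were called in the data, so these rates need not hold for them. A gene that was not called may still be unequal.

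Over all autosomal genes together, the genome 1 share was 50.2% in line 2, 47.3% in line 9 and 51.3% in line 22, or 49.6% ± 2.12 (SD, n = 3). With 3 libraries an exact sign-flip test cannot go below p = 0.25, so none was used. Below this balance the chromosomes lay at different levels. The bands that follow were chosen to describe these medians and do not test for separate levels. Of 57 chromosome medians (19 autosomes in 3 lines), 27 lay between 47 and 54%, 12 between 63 and 70%, 9 between 30 and 36%, and 9 elsewhere. The lowest was 32.5% and the highest 73.8%.

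**Figure D1:**
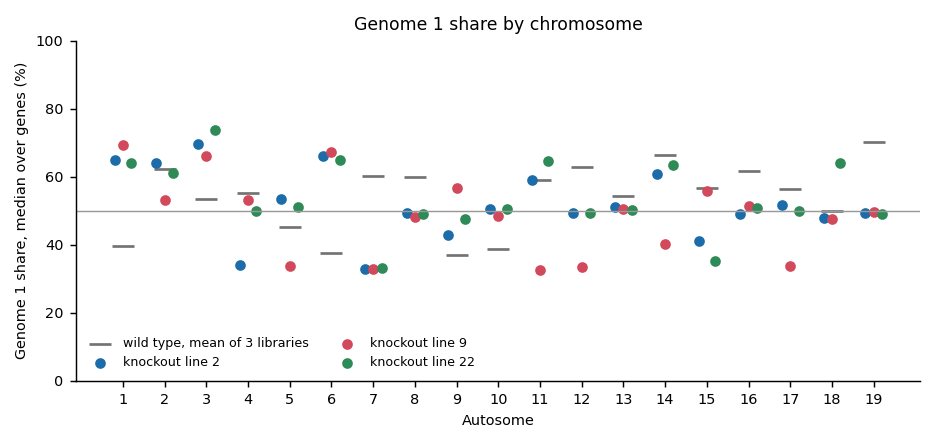
Median genome 1 share over genes (%, y axis) of each autosome (x axis) in knockout lines 2, 9 and 22, 1 point per line, with the mean of 3 wild-type libraries as a dash. Chromosome 7 sits at 32.7 to 33.0% in all 3 lines, and chromosome 11 at 32.5% in line 9 but 64.6% in line 22.

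The lines shared some of these levels. On chromosome 7 the median share was 32.7% in line 2, 32.9% in line 9 and 33.0% in line 22, and in wild type it was 60.2%. Chromosome 6 lay at 66.0, 67.1 and 65.0% against 37.6% in wild type, and chromosome 1 at 64.8, 69.4 and 64.0% against 39.5%. On chromosome 3 the medians were 69.5, 66.1 and 73.8% against 53.6%. Chromosomes 8, 10, 13, 16 and 19 lay between 48.2 and 51.5% in every line. In wild type these 5 chromosomes ranged from 38.8% (chromosome 10) to 70.3% (chromosome 19). All 3 knockout lines lay on the same side of the wild-type median on these chromosomes, as they did on 15 of the 19 autosomes, and no test of this was made.

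Other chromosomes differed between the lines, by at least 10 points in 10 of the 19 autosomes. On chromosome 5 the median of line 9 was 33.8% against 53.3% in line 2 and 50.96% in line 22. The values on chromosome 12 were 49.2, 33.3 and 49.3% for lines 2, 9 and 22, and on chromosome 17 they were 51.6, 33.7 and 50.03%. On chromosome 14 they were 60.7, 40.3 and 63.5%. Line 2 alone was low on chromosome 4, at 33.9% against 53.2% in line 9 and 49.9% in line 22. Line 22 alone was high on chromosome 18, at 64.0% against 48.0 and 47.5%. Chromosome 15 took a different level in each line, with 41.2, 55.7 and 35.3%.

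The CPM of each allele show which allele moved. Between lines 9 and 22, the genome 1 counts of chromosomes 5, 12 and 17 were lower in line 9, by a median log2 ratio over genes of -0.79, -0.79 and -0.82. The genome 2 counts of the same chromosomes moved by 0.19, 0.18 and 0.12, and the counts of all reads by -0.23, -0.21 and -0.27. On chromosome 18 the genome 2 counts were higher in line 9 by 1.03 and those of genome 1 by 0.08. Chromosome 9 had genome 2 lower by 0.74 with genome 1 at 0.01, and all counts at -0.36. On chromosome 11 the alleles moved in opposite directions, genome 1 by -0.85 and genome 2 by 1.04, while all counts moved by 0.12. Chromosome 15 did the reverse, with 0.69 for genome 1, -0.56 for genome 2 and -0.01 for all counts. Between lines 2 and 22 the only shift beyond 0.5 apart from chromosome 18 was the genome 1 allele of chromosome 4, at -0.84. Each of these is a difference of 1 library against 1, with no replicate check, and fewer copies of an allele and less RNA per copy cannot be told apart.

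**Figure D2:**
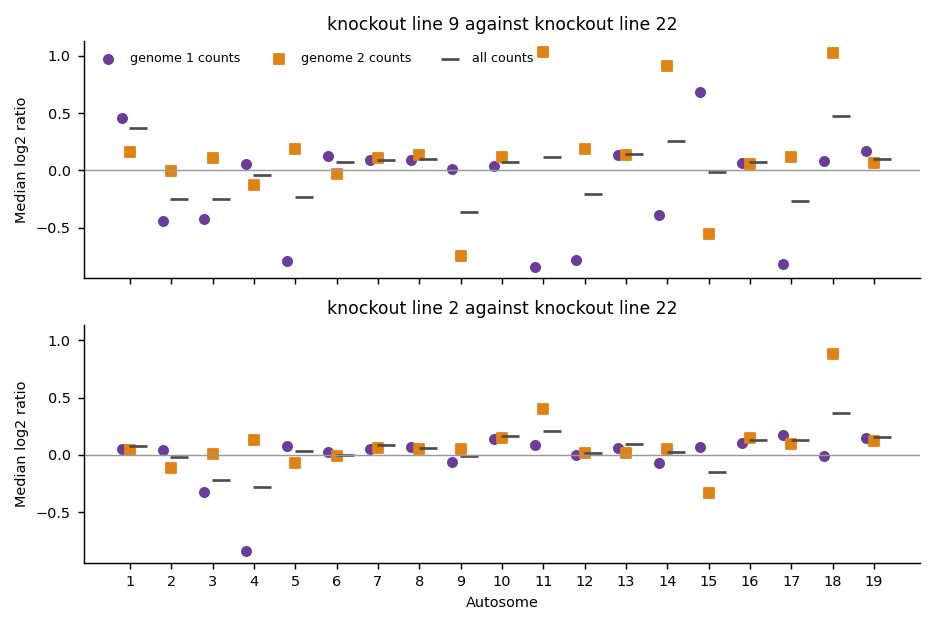
Median over genes of the log2 ratio of CPM (y axis) between knockout lines 9 and 22 (top) and 2 and 22 (bottom) for each autosome (x axis), for genome 1 counts, genome 2 counts and the counts of all reads. On chromosome 11 genome 1 lies at -0.85 and genome 2 at 1.04 in the top panel, with all counts at 0.12.

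Single genes were then split by how alike the lines were. Of 11578 autosomal genes with at least 20 allele-assigned counts in every line, 5021 leaned to the same genome in all 3 lines (43.4%). A gene counted as alike when its 95% Wilson intervals lay on 1 side of 50% in every line and its share ranged over less than 30 points. Toward genome 1 there were 2456 (21.2%), of which 1218 lay on chromosomes 1, 3 and 6. Toward genome 2 there were 2565 (22.2%), of which 652 lay on chromosome 7. Their favoured allele held a median of 70.6% toward genome 1 and 73.1% toward genome 2. A further 1416 genes differed between lines (12.2%), with a range of at least 30 points and separate intervals at its ends, and 567 of these lay on chromosome 11. In 981 of them (8.47%) lines lay on opposite sides of 50%. The remaining 5141 genes met neither rule. The median range over all 11578 genes was 13.5 points, and 40.8% of them ranged over less than 10 points. The intervals cover counting error only.

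To set a gene against its own chromosome, the edgeR fit was repeated with the median allelic ratio of each chromosome and line taken out. It called 1390 autosomal genes above their chromosome (11.1%) and 1984 below it (15.8%). Of the 3525 autosomal genes called against an even split, 2183 kept the same direction here, 1329 were not called and 13 were called in the opposite direction. These counts also fell with fewer libraries, to 520 to 703 above and 1015 to 1186 below when any 1 line was left out, and without the library term to 909 and 1525.

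Among genes close to a single genome, 353 autosomal genes had at least 95% genome 1 in all 3 lines (2.81% of autosomal members) and 384 had at most 5% (3.06%). Pseudogenes made up 66 and 117 of them. In the wild-type libraries, 296 of the first group and 313 of the second met the same limit in all 3 libraries. Chromosome 2 held 187 of the genes at genome 1.

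A block of chromosome 2, chr2:62595798-136014593 (GRCm38), held most of these. Its limits are the outer ends of runs of such genes, found in these same shares. The contrast with other genes that follows therefore describes the block and does not test it. Of its 357 members, 178 lay at or above 95% and 35 at or below 5% in all lines, together 59.7%, against 4.11% on the rest of chromosome 2 and 4.31% on the other autosomes. It fell into 3 runs in line 2. From Ifih1 to Aven the median share was 99.9% over 152 genes. From Srp14 to Wdr76 it was 3.4% over 63 genes, and from B2m to Plcb4 it was 99.9% over 96 genes. In line 9 the first run began at Cobll1, and in line 22 it was split between Kbtbd4 and Ddb2. Wild type had medians of 99.9, 4.08 and 99.7% over the genes of the line 2 runs. Between 20 and 80% in all lines lay 50 genes of the block and 481 of the 609 members on the rest of the chromosome.

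**Figure D3:**
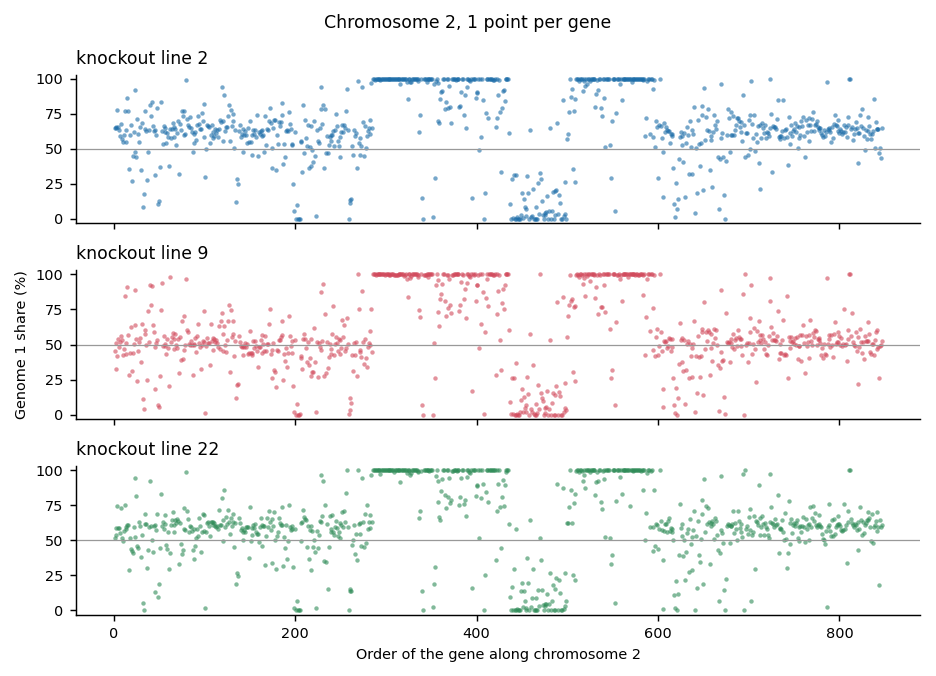
Genome 1 share (%, y axis) of each gene other than pseudogenes with at least 20 allele-assigned counts in every line, in order along chromosome 2 (x axis), 1 panel per knockout line. Genes near 100% and near 0% form the same blocks in lines 2, 9 and 22. Over all 609 members outside chr2:62595798-136014593, including those not drawn, the medians are 62.03, 50.4 and 59.1%.

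The most abundant genes of the block on the genome 1 side included Fbn1, which encodes the microfibril protein fibrillin-1. Its genome 1 and genome 2 counts were 10070 and 163 in line 2, 10761 and 205 in line 9, and 11620 and 157 in line 22. The log2 ratio was 5.96 (SE 0.21, adjusted p = 0.0029), and wild type had 98.7%. B2m, the light chain of MHC class I, had 6073 and 18, 5000 and 8, and 6144 and 15 counts, a log2 ratio of 8.74 (SE 0.30, adjusted p = 0.00297). Prnp, the prion protein gene, Itgav, an integrin chain, Idh3b, a subunit of mitochondrial isocitrate dehydrogenase, and Cenpb, a centromere protein, lay between 99.7 and 100% in every line. Within the opposite run, Pdia3, a chaperone of glycoprotein folding, gave 4 genome 1 counts of 14699 in line 2, 0 of 11951 in line 9 and 10 of 14610 in line 22. In wild type B2m was at 99.7% and Pdia3 at 0.03%.

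Outside this block, the genes near a single genome were spread over the autosomes. Tm4sf1, a tetraspanin-like membrane protein on chromosome 3, had 99.7, 98.9 and 95.9% genome 1 in lines 2, 9 and 22 and 90.3% in wild type (log2 ratio 6.47, SE 1.07, adjusted p = 0.0237). Nes, the intermediate filament nestin, had 99.8, 99.4 and 99.7% against 76.8% ± 0.14 (SD) in the 3 wild-type libraries. Fstl3, a secreted activin antagonist, had 98.8, 98.7 and 99.0% in the lines and 42.4% ± 2.75 in wild type, and its log2 ratio was 6.39 (SE 0.22, adjusted p = 0.0029). For these 3 genes every line lay above every wild-type library, and no test was made between them.

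Toward genome 2, Mmp14, a membrane-bound matrix metalloproteinase, had 0.47, 0.54 and 0.58% genome 1, a log2 ratio of -7.55 (SE 0.20, adjusted p = 0.00289), and 0.7% in wild type. Vcp, an ATPase that extracts proteins for degradation, and Prdx2, a peroxiredoxin, lay at 0.2 to 0.6% in every line. Cdkn2b, an inhibitor of cyclin-dependent kinases, had at most 0.2%. Col18a1, a basement membrane collagen, had 1.6, 4.3 and 1.9% in the lines and 22.1% ± 2.13 in wild type. Its log2 ratio was -5.36 (SE 0.43, adjusted p = 0.00814). The ribosomal genes Rps26, Rplp1 and Rps13 also lay at or below 2.0%, but they have many processed copies in the genome, so the assignment of their reads is uncertain.

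Shorter stretches of neighbouring genes leaned alike in all lines. Over windows of 25 genes, 7 stretches outside chromosome 2 lay more than 20 points below their chromosome's median in every line, and none lay above. The 43 genes from Tecr to Wdr83 on chromosome 8 had medians of 17.4, 20.5 and 18.7% in lines 2, 9 and 22 against 48.3 to 49.4% over all classified genes of the chromosome. From Rgs5 to Ncstn on chromosome 1, 25 genes had 12.9, 24.4 and 19.8% against 64.4 to 69.7% over the chromosome. The 42 genes from Lrp6 to Tm7sf3 on chromosome 6 had 27.8, 27.5 and 28.4%. From Dlgap5 to Thtpa on chromosome 14, a stretch of 47 genes that holds Mmp14, the medians were 23.5, 13.9 and 23.03%. In wild type the medians of these 4 stretches were 22.8, 12.7, 15.1 and 23.4%, which also lay below the wild-type medians of their chromosomes.

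Of 15 members of a list of genes known as paternally expressed, 9 were called toward genome 1 and 1 toward genome 2. Of 11 known as maternally expressed, 2 were called toward genome 1 and 4 toward genome 2. The share of all members called in either direction was 30.3%. The median share was 99.5% over the paternal list and 41.9% over the maternal list.

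Paternally expressed genes at genome 1 included Peg10 and Sgce, neighbours on chromosome 6, Impact, Peg13, Plagl1 and the long noncoding RNAs Kcnq1ot1 and Airn. Peg10, a retrotransposon-derived gene, had 107 genome 1 counts and 2 genome 2 counts in line 2, 823 and 0 in line 9, and 1542 and 5 in line 22. Sgce, a sarcoglycan, had 2345 and 8, 1878 and 2, and 2781 and 0, with a log2 ratio of 9.51 (SE 0.93, adjusted p = 0.0108). Airn had 57, 33 and 97 genome 1 counts and no genome 2 count, which over the 187 counts allows a genome 2 share of up to 1.60%. Kcnq1ot1, which silences a cluster on chromosome 7, had 68, 29 and 113 genome 1 counts and 1 genome 2 count in all. Snrpn, from another imprinted cluster of chromosome 7, had genome 1 counts of 91 in line 2, 4 in line 9 and 0 in line 22, and none from genome 2. It was not called.

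The 4 maternally expressed genes called toward genome 2 were Grb10, Igf2r, Cdkn1c and H13. Grb10, an adaptor of growth factor receptors, had 7 genome 1 and 1197 genome 2 counts in line 2, 3 and 2914 in line 9, and 5 and 1487 in line 22. Its log2 ratio was -8.40 (SE 0.60, adjusted p = 0.00706). Igf2r, the receptor that clears the growth factor IGF2, had 34 and 1620, 38 and 2713, and 18 and 1946, with a log2 ratio of -6.14 (SE 0.34, adjusted p = 0.00512). In all 3 lines its counts lay on the genome opposite to those of its antisense partner Airn. The growth inhibitor Cdkn1c had 0 genome 1 counts of 5, 24 and 80. Airn and Igf2r overlap on opposite strands, and the counting is not stated to use strand, so reads of each can be counted with the other.

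CpG is the dinucleotide that carries DNA methylation, the known mark of imprints. The promoters of 2 genome 2 genes and 2 genome 1 RNAs are shown as examples only. They are the 250 bases before the RefSeq start (GRCm38.p6), 5′ to 3′ on the gene's strand, with every CG in capitals. Igf2r (chr17:12769707-12769956, minus strand) held 27 CG and Airn (chr17:12741061-12741310, plus strand) held 2. Grb10 (chr11:12037421-12037670, minus strand) held 40 and Kcnq1ot1 (chr7:143296548-143296797, minus strand) held 5.
Igf2r: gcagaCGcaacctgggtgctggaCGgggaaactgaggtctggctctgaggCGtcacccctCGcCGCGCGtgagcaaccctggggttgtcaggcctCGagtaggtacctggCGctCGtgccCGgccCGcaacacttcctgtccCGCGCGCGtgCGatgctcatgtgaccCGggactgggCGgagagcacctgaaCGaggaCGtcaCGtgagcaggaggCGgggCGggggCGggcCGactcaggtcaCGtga
Airn: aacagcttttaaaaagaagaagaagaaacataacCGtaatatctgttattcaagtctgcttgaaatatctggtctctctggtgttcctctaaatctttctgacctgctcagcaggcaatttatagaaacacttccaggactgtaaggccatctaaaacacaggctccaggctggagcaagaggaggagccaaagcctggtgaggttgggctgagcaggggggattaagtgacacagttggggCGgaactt
Grb10: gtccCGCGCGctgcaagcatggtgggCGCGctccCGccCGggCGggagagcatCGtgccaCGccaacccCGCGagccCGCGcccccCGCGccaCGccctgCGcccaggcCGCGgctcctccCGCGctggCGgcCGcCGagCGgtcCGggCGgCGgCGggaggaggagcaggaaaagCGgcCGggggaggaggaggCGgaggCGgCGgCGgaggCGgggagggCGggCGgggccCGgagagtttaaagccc
Kcnq1ot1: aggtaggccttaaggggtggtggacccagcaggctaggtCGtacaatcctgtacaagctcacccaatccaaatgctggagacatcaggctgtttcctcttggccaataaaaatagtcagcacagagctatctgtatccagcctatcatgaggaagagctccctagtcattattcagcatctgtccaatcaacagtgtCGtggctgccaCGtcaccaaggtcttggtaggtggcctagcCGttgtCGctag
In this window Igf2r and Grb10 had more CG than Airn and Kcnq1ot1. These promoters are not a sample of the imprinted lists, so their contrast says nothing about the other listed genes. Over the members whose symbol had a RefSeq promoter (9251 of 12996, 71.2%), the median was 16. Over the 19 of 26 members of the imprinted lists with such a promoter it was 14. The window ends at the RefSeq start, so CG beyond the start were not counted. A low count here therefore does not show that a promoter is poor in CG. A relation between CG and the allele used was not tested. The allele carrying methylation was not measured.

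**Figure D4:**
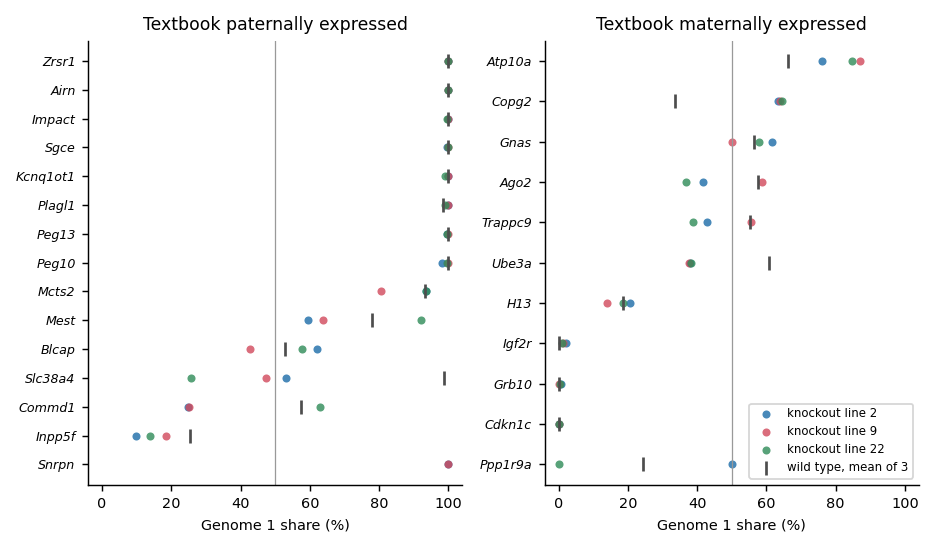
Genome 1 share (%, x axis) of each listed imprinted gene (y axis) in knockout lines 2, 9 and 22, 1 point per line, with the mean of 3 wild-type libraries as a bar where every library had counts. Airn, Sgce and Kcnq1ot1 lie at 99.1 to 100% and Grb10 and Igf2r at or below 2.1%, with Slc38a4 at 25.7 to 53.1% in the lines and 98.6% in wild type.

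Several listed genes did not follow their list. Slc38a4, an amino acid transporter known as paternally expressed, had 17 genome 1 and 15 genome 2 counts in line 2, 28 and 31 in line 9, and 9 and 26 in line 22, against 98.6% genome 1 in wild type. Mest, a hydrolase-like gene on chromosome 6, had 59.3, 63.7 and 92.0% genome 1 in the lines and 52.5 to 92.2% in wild type, and neither was called. Inpp5f, of which only 1 transcript form is known as imprinted, was called toward genome 2 with 9.9, 18.5 and 13.9%. H13, a signal peptide peptidase, was called toward genome 2 with 20.7, 13.9 and 18.5%, and Mcts2, which lies within it, toward genome 1 with 93.5, 80.5 and 93.5%. Both of these calls had the direction of most called genes on their lists. Copg2 was called toward genome 1 at 63.3 to 64.6%, but not against its chromosome (adjusted p = 0.417 in edgeR). Ube3a, Ago2, Trappc9 and Gnas were not called against either. Atp10a was called toward genome 1 on 50, 62 and 13 counts.

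On the X chromosome the genes lay on genome 2 and Xist on genome 1. Xist had 9709 genome 1 and 15 genome 2 counts in line 2, 12476 and 21 in line 9, and 12553 and 26 in line 22, or 99.8% genome 1 in each. Without Xist, the genome 1 share of X-linked counts was 2.104, 2.24 and 1.92%, or 2.09% ± 0.161 (SD, n = 3), and 2.53 to 2.71% in wild type. Leaving out pseudogenes brought it to 1.05, 1.22 and 0.917%, and to 1.26 to 1.33% in wild type. Of the 346 X-linked members that were neither pseudogenes nor Xist, 312 lay at or below 5% in all lines, 327 were called toward genome 2 and 1 toward genome 1, and 18 were not called. Abundant ones included Flna, an actin crosslinker, Bgn, a matrix proteoglycan, and Rps4x, a ribosomal protein, at 0.04 to 0.29% genome 1 in the lines.

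In 48 X-linked genes genome 1 held at least 10% in all lines, and 37 of them were pseudogenes. Among the other 11, Kdm5c and Kdm6a, a pair of histone demethylases, had 29.6, 35.2 and 38.8% and 45.6, 46.7 and 43.2% genome 1. Eif2s3x, a translation initiation subunit, had 36.9, 40.2 and 38.5%, Ddx3x, an RNA helicase, 31.8, 26.1 and 30.3%, and Pbdc1 42.1, 46.9 and 51.7%. The noncoding RNAs Jpx and Ftx, which lie next to Xist, had 31.3 to 35.7% and 15.7 to 19.9%. Several other genes of the escape list had next to no genome 1 counts. Usp9x, a deubiquitinase, had 0 genome 1 counts of 8953 over the 3 lines, which allows a share of up to 0.0335%. Ogt, which attaches sugars to nuclear proteins, had 0 of 4859. Of the 20 escape-list members, 15 were called toward genome 2 and 5 were not called, beside 358 of the 417 X-linked members (85.9%) and 16.9% of all members called toward genome 2. Car5b lay at 0.2, 13.2 and 0.0%, and line 9 was the only one with more than 2 genome 1 counts (197). All 10 members of the mitochondrial genome list were called toward genome 2, with at most 0.03% genome 1 in each of the 4 with the smallest p (mt-Cytb, mt-Co1, mt-Nd6 and mt-Nd4).

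Of the genes that differed between lines, the largest part lay on chromosome 11. The rule asks for a range of at least 30 points, and only on chromosome 11 did the chromosome medians range that far, over 32.1 points. The medians of chromosome 14 ranged over 23.3 points and those of chromosome 15 over 20.4 points, short of the limit. The lead of chromosome 11 thus cannot be told apart from the choice of limit. Between lines, the difference in share kept 1 level along 14 of the 19 autosomes. On chromosome 11, line 9 lay at 32.5% and line 22 at 64.7% over the 782 genes from Sfi1 to 2610035D17Rik, and line 2 at 58.9%. Further along the levels changed. From Slc39a11 to Snhg16 (chr11:113244853-116675799) its median over 46 genes was 31.4%, with 28.1% in line 9 and 60.9% in line 22. Its genome 2 counts there were higher than in line 22 by 1.88 on the log2 scale and all counts by 1.07, while its genome 1 counts were higher by 0.13. From Mxra7 to Tha1, over 16 genes, the medians of lines 2, 9 and 22 were 41.7, 22.2 and 50.4%. Lines 9 and 22 thus also lay lower there than on either side. Wild type was lower over the same genes too, with a median of 47.004%. The wild-type median was 60.5% from Sfi1 to 2610035D17Rik, 48.99% from Slc39a11 to Snhg16 and 57.5% from Socs3 to Metrnl.

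From Socs3 to Metrnl, the last member of the chromosome (chr11:117966079-121716306), the median of line 2 was 100% over 73 genes, and 65 of them lay at or above 95%. In the same genes line 9 lay at 33.7%, line 22 at 65.9% and wild type at 57.5%. Genome 1 counts of line 2 were 0.15 above line 22 on the log2 scale, and all counts 0.39 below. Sirt7 (chr11:120618372-120625240) lies in this stretch. It had 383 genome 1 and 0 genome 2 counts in line 2, which allows a genome 2 share of up to 0.783%. Line 9 had 151 and 742 and line 22 had 369 and 208, or 16.9 and 64.0% genome 1. The wild-type libraries lay at 56.6, 57.2 and 58.7%. These allele estimates do not add up to the counts of all reads: with the unassigned part they summed to 669, 1269 and 944 in lines 2, 9 and 22, against 512, 694 and 787, and in line 9 genome 2 alone exceeded the count of all reads. The wild-type sums, 1032 to 1154, also lay above the counts of all reads, so the shares of Sirt7 are uncertain. Its neighbours Rab40b, Tbc1d16, B3gntl1 and Hexdc, named for their wide range, had 100% genome 1 in line 2, 16.1 to 22.1% in line 9 and 44.3 to 64.9% in line 22. The lower quartile of line 9 over the stretch was 29.5%, so Sirt7 lay low within it. The neighbours were chosen by range, and with line 2 at 100% a wide range needs a low share in another line. Their low shares therefore say nothing about the surroundings of Sirt7. Sirt7 overlaps Mafg at its end, and without strand the reads of the overlap cannot be told apart.

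**Figure D5:**
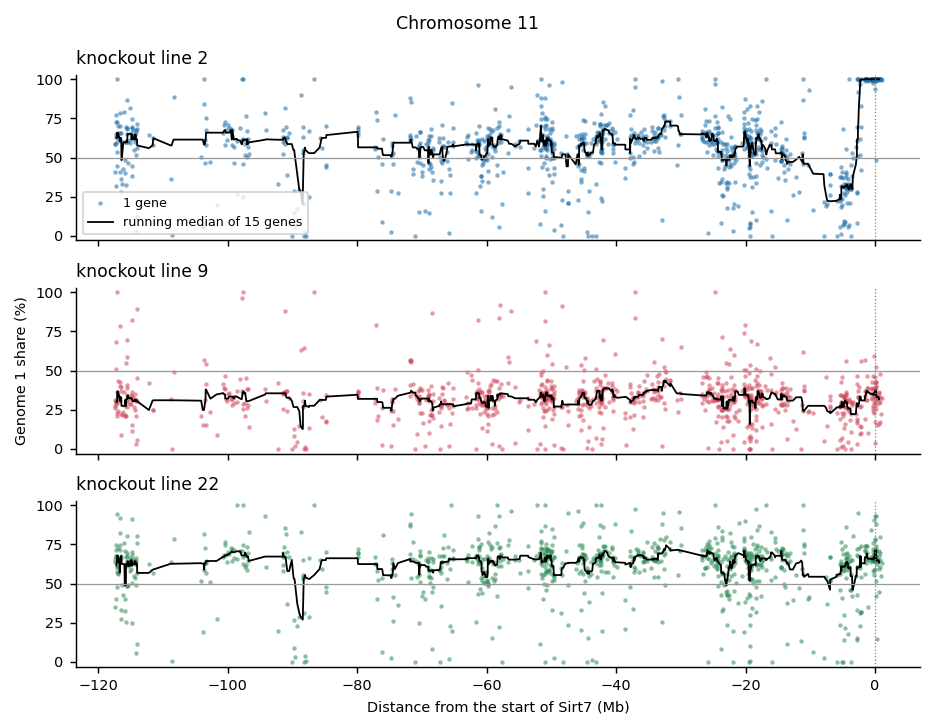
Genome 1 share (%, y axis) of each gene other than pseudogenes with at least 20 allele-assigned counts, against the distance of its start from that of Sirt7 in Mb (x axis, dotted line at Sirt7), 1 panel per knockout line, with a running median of 15 genes. Line 2 falls to 31.4% before Sirt7 and then reaches 100%. Lines 9 and 22 have medians of 32.5 and 64.7% up to 2610035D17Rik. Lines 9 and 22 fall to 22.2 and 50.4% from Mxra7 to Tha1, and lie at 33.7 and 65.9% after Tha1. The wild-type median is also lower from Mxra7 to Tha1 than on either side.

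Chromosome 9 showed a second such step. From Bmper to Map2k5 (chr9:23223076-63377902), line 2 had a median of 32.3% over 191 genes, against 52.0% before and 46.5% after it. Line 9 had 48.4% there, against 67.7% before and 61.4% after. Line 22 had 50.97, 47.9 and 45.9% before, in and after it. Genome 1 counts of this stretch were lower than in line 22 by 0.93 in line 2 and by 0.79 in line 9 on the log2 scale. Lines 2 and 9 thus shared the step. On chromosome 14, line 9 lay below line 22 by a median of 10.4 points over the 47 genes from Fermt2 to Thtpa, against 23.1 and 22.7 points on either side. The medians there were 32.0, 16.9 and 28.3% in lines 2, 9 and 22, and the genes overlap the low stretch from Dlgap5 to Thtpa. Differences in points shrink at low shares, so a step between the lines was not established there.

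The chromosome's level did not account for every gene. With a running median of 51 genes of each line taken out, 699 genes still differed between lines (6.04%), of which 542 also differed as counted. The wild-type libraries are labelled as replicates, not as lines. They show the ranges between replicate libraries, not the spread to be expected between lines. Among 11297 of the classified genes with at least 20 counts in every wild-type library, the 3 wild-type libraries differed by the same rule in 414 (3.66%). Of the line-differing genes with wild-type counts, 178 of 1357 also differed between wild-type libraries (13.1%). On chromosome 11 these were 26 of 559. Of the genes that differed after the running median as well as before, they were 134 of 499 (26.9%).

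Several of the widest ranges were of this kind. Vps26a, a retromer subunit, had 99.7% genome 1 in line 2 and 1.8 and 2.3% in lines 9 and 22, and its wild-type libraries had 1.5, 99.7 and 99.6%. Usp49, a deubiquitinase, had 14.02, 97.9 and 95.6% in the lines and 9.2, 99.8 and 99.8% in wild type. Mafg, a small Maf transcription factor, had 100, 4.0 and 93.4% in the lines and ranged over 84.1 points in wild type. For Vps26a and Usp49 the range between lines, 97.9 and 83.9 points, was no wider than between the wild-type libraries, at 98.2 and 90.7 points. Of the 20 genes with the widest range among those with at least 50 counts in every line, 8 also met the rule in wild type, and these included Tmem189, Epb41l1, Endov and Mib1.

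Other genes ranged widely between lines while the wild-type libraries lay close together. For 53 genes this held with less than 10 points between wild-type libraries, no overlapping gene and a steady allele-assigned part of the counts. They were selected after the values were seen, and the 20 with most counts are the source of those that follow. Lamb1, a laminin chain of basement membranes on chromosome 12, had 4296 genome 1 and 3624 genome 2 counts in line 2, 4476 and 4207 in line 9, but 103 and 2874 in line 22. That is 54.2, 51.5 and 3.5%, with 64.5 to 65.9% in wild type. In line 22 it was the genome 1 allele that was low.

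Mmp2, a secreted gelatinase on chromosome 8, had 79 and 533 counts in line 2, 133 and 736 in line 9, and 2074 and 329 in line 22. The shares were 12.9, 15.3 and 86.3%, and 73.4 to 80.4% in wild type, so line 22 lay with genome 1 and the other two with genome 2. Dkk3, a secreted Dickkopf-family protein, had 0.9% in line 2, 24.5% in line 9 and 35.0% in line 22, against 43.1 to 44.9% in wild type. The axon guidance receptor Robo1 had 0 genome 1 counts of 968 in line 2 and 0 of 505 in line 9, which allow up to 0.310 and 0.594%, and 967 of 2624 in line 22. Ror2, a receptor for Wnt ligands, had 29.0, 69.2 and 48.6%. Atp6v1f, a subunit of the vacuolar proton pump, had 70.6, 69.8 and 100%. Megf6 had 3.4% in line 9, and Man2b2, a mannosidase, had 99.2% in line 22.

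edgeR called 0 of the 1416 line-differing genes, of which 6 had an unadjusted p under 0.05. DESeq2 called 92 of them and limma 0. These fits test the mean allelic difference over the lines, and a wide range between lines works against a call. They are therefore no test of the differences between lines. Genes that overlap another gene made up 54.3% of the line-differing genes and 52.9% of all classified genes. The part of the counts that was allele-assigned varied over 3-fold between lines in 8.26% of them and in 2.03% of all. Its part in the differences was not tested.

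The clustered protocadherins, cell adhesion genes of chromosome 18 known for the choice of single members in neurons, had 22 members. Of these, 1 was called toward genome 1 and 3 toward genome 2, against 30.3% of all members called. By the class rules 4 of 18 differed between lines, beside 12.2% of all classified genes. Pcdhb17 had 142 genome 1 and 0 genome 2 counts in line 2, 331 and 238 in line 9, and 0 and 150 in line 22, and its wild-type libraries ranged from 44.8 to 100%. Pcdhgc3, the most abundant member, had 71.2% in line 2 and 16.4 and 21.7% in lines 9 and 22, with 20.4 to 34.5% in wild type. Pcdhb19 had 0.0, 64.0 and 61.8% in the lines but 0.0 to 100% in wild type. Clustered protocadherins overlap and resemble each other, so the assignment of their reads is uncertain.

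The abundant genes called against their chromosome included matrix, cytoskeletal and ribosomal genes. Col5a2, a fibrillar collagen chain on chromosome 1, had 70.8, 77.1 and 71.4% genome 1, which was above its chromosome by 0.49 on the log2 scale (SE 0.05, adjusted p = 0.00729). Col3a1, beside it, had 75.3, 75.7 and 79.2% (0.77 above, SE 0.14, adjusted p = 0.0308). Sparc, a collagen-binding matrix protein, had 68.8, 38.7 and 71.2%, following chromosome 11 from line to line, and stood 0.48 above it (SE 0.06, adjusted p = 0.0117). Below their chromosome lay Col5a1 on chromosome 2, with 28.5, 21.4 and 26.6% (-2.11, SE 0.04, adjusted p = 0.000662), and Cst3, a secreted protease inhibitor, with 40.3, 31.0 and 38.5% (-1.35, SE 0.04, adjusted p = 0.000944). Myh9, a nonmuscle myosin, had 36.6, 52.5 and 30.2% (-0.27, SE 0.04, adjusted p = 0.0244). Of the 20 most abundant such genes, 10 in each direction, 13 were called without line 2, 9 without line 9 and 10 without line 22. All 20 were also called by DESeq2, 13 with TMM scaling, 7 by limma, 6 without the library term and 15 against a running median of 51 genes. Against that median Col5a2 lost its call (0.21, adjusted p = 0.103), Col3a1 stood 0.45 above and Cst3 at -0.76.

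Other abundant genes lay near an even split. Acta2, smooth muscle actin, had 49.2, 49.1 and 47.7% genome 1 on 300217 to 425402 counts, and Eef2, the translation elongation factor, 50.5, 50.5 and 51.7%. Col6a1, Psap and Cnn2, all on chromosome 10, lay between 46.7 and 52.6%. In wild type Acta2 had 69.6% and Eef2 39.8%.

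Functional groups leaned to both genomes. Of 48 members of the fibroblast matrix list, 11 were called toward genome 1 and 8 toward genome 2 (30.3% of all members were called), and 10 of 42 classified members differed between lines, beside 12.2% of all classified genes. Their median share was 50.9%. Col1a1, on chromosome 11, had 58.3, 29.9 and 65.5%, and Col1a2, on chromosome 6, had 69.0, 67.3 and 68.2%. The genes of the 2 collagen I chains thus lay on opposite sides of 50% in line 9. Of 26 contractile genes, 7 and 3 were called. Cald1, caldesmon, had 73.4, 72.8 and 71.0%, and Ankrd1, a mechanosensitive nuclear factor, 74.0, 76.3 and 78.1%. Of 77 cytosolic ribosomal protein genes, 10 were called toward genome 1 and 21 toward genome 2, with a median share of 44.7%, on reads made uncertain by processed copies.

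Of the 7 sirtuins, Sirt7 included, 1 was called, beside 30.3% of all members. Sirt5, the mitochondrial desuccinylase, had 38.1, 30.4 and 25.2% genome 1 (log2 ratio -1.15, SE 0.26, adjusted p = 0.0458). Sirt2 had 38.5, 43.4 and 36.2% and was not called (adjusted p = 0.0793 in edgeR). Sirt1 and Sirt6, both on chromosome 10, lay between 46.4 and 54.6%. Sirt4 had 66.7, 35.8 and 53.3%. With Sirt7 it was 1 of the 2 sirtuins that differed between lines, beside 12.2% of all classified genes.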

How the data were processed

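PolyA RNA of 3 SIRT7-knockout lines and 3 wild-type libraries was measured. The deposited values are estimated counts per gene and parental genome, whole numbers that the authors made with SNPsplit, as the table's name says; the submitters' processing notes name FastQC 0.11.3, Trimmomatic 0.36, HISAT2 2.1.0, SAMtools 0.1.19 and StringTie 1.3.3, with the builds mm10 and GRCm38, and no roles. The labels and headers state neither the use of strand nor which strain is genome 1. Each allele was estimated separately, and the split counts came within 5% of the all-read counts in 65.6 to 65.8% of genes. edgeR 4.0.16 (R 4.3.3) fitted library plus allele with equal library sizes for both alleles, on genes with a mean of 20 counts, with Benjamini-Hochberg adjustment over 12996 genes, and again with chromosome medians as offsets over 12548 autosomal genes. Pairing is by library, since both alleles come from 1 library. The model was tested on simulated data. limma 3.58.1 and DESeq2 1.42.0 were alternatives. Each line gave 1 library, so p-values measure the spread between lines. Named genes were Sirt7; the called genes with most counts at 95% or more, or 5% or less, in all lines; the 20 with the widest range; the most abundant called against their chromosome; 5 balanced genes; the imprinted, escape and protocadherin lists; X-linked genes at 10% or more; and up to 4 by p of each other list. Fstl3, Col18a1, Col1a1, Col1a2, the other sirtuins and the 53 genes steady in wild type were chosen after their values were seen. The genes and lists were chosen with earlier results of these data known.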

Additional observations from a re-analysis of the deposited data

Results flagged for a closer look

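On 7 autosomes the genome 1 share of all counts lay above 50% in 1 line or more and below it in another, and ranged over at least 15 points. Each line is 1 library, so these differences were not tested. On chromosome 11 the range was 32.0 points, from 31.6% in line 9 to 63.6% in line 22. It was 20.6 points on chromosome 14, lowest in line 9 at 35.4%, and 20.6 points on chromosome 15, lowest in line 22 at 34.96%. Chromosome 5 ranged over 18.9 points and chromosome 17 over 17.7 points, both lowest in line 9. Chromosome 4 ranged over 17.4 points, lowest in line 2 at 33.4%. Chromosome 18 ranged over 16.7 points, with line 22 highest at 63.1%.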

How the results depend on the processing

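Calls against an even split kept within 1.5 times of the reported counts under TMM scaling, DESeq2, limma, other count limits, no library term and without pseudogenes. Leaving out 1 line gave 0 to 1265 genes toward genome 1 and 0 to 1472 toward genome 2, both at 0 in edgeR without line 22, where 4137 genes had an unadjusted p under 0.05. Against the chromosome, leaving out 1 line gave 520 to 703 above and 1015 to 1186 below, and the fit with no replicate block gave 909 above. Genes that differed between lines numbered 3335 with a range of 20 points, 540 with 40 points, 758 with the chromosome median taken out, 699 with the running median taken out, 647 without overlapping genes, and 487 to 986 with 1 line left out. Genes biased alike numbered 2351 without overlapping genes. The running median and the removal of overlapping genes were chosen after seeing the data. The X-linked genome 1 share was 1.06% without pseudogenes and 0 as the median over genes. No paired analysis was possible between genotypes because no groups were compared. Depth limits genes with few counts, and 142 members had 0 allele-assigned counts in a line.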

Other observations

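Other gene groups leaned to both genomes, beside 30.3% of all members called by edgeR. Of 13 MHC class I pathway genes, 2 were called toward genome 1 and 3 toward genome 2. Calr, a chaperone of the endoplasmic reticulum, had 30.7, 27.3 and 29.98% genome 1 in lines 2, 9 and 22, and H2-T22, a nonclassical class I gene with close copies, had 87.0, 76.6 and 84.2%. Of 32 interferon-stimulated genes, 5 and 4 were called, and 5 of 29 classified ones differed between lines, beside 12.2% of all classified genes. The antiviral kinase Eif2ak2 had 29.0, 23.02 and 27.9%.

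Of 17 growth arrest genes, 2 were called toward genome 1 and 6 toward genome 2. Phlda3, a p53 target, had 4.8, 4.2 and 4.7%, and Cdkn1b, an inhibitor of cyclin-dependent kinases, had 26.8, 24.4 and 27.2%. Of 18 glutathione and xenobiotic genes, 4 were called each way. The neighbouring transferase genes Gstp1 and Gstp2 lay on opposite sides, at 77.4, 75.7 and 73.7% and at 15.1, 15.5 and 12.8%. They resemble each other, so the assignment of their reads is uncertain. Of 24 regulators of X inactivation, Xist included, 4 were called each way.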
